A study of Mus musculus with 4 samples.

Results

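Transcripts of 8 genes of cholesterol synthesis and its control were followed in single-nucleus RNA-Seq data from mouse liver. The 8 genes (Hmgcs1, Idi1, Fdft1, Sqle, Lss, Cyp51, Srebf2 and Insig1) are 8 of the 54464 genes in the deposited count matrix. They were chosen by name with the hepatocyte values of these same nuclei already known, so their levels over hepatocyte clusters and between genotypes in hepatocytes are given as a description. The livers of 6 mice gave 5193 nuclei. Of the mice, 3 were controls (WT) and 3 carried a deletion of Nampt directed to hepatocytes (HNKO). The authors' 21 clusters included 13 of hepatocytes, which held 4410 nuclei. Nampt encodes the enzyme that salvages nicotinamide for the synthesis of NAD.

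The mice were females on the C57BL6/BomTac background, aged 8 to 12 weeks at the start, and ate a purified control diet for 6 weeks. All of them carried the floxed Nampt allele (Nampt cKO in the labels). HNKO mice also carried Alb-Cre, a Cre recombinase driven by the albumin promoter, and WT mice were littermates without it. They came from a cohort in which some mice drank nicotinamide riboside in the last weeks, and whether any of these 6 did is not given in the sources used here. Each mouse was marked by its own hashtag, an antibody carrying an oligonucleotide, and all 6 mice were then pooled. Mice are numbered 1 to 3 within a genotype by the order of their hashtag names, values given as 3 numbers are in that order, and p-values measure the spread between these mice.

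Cells build cholesterol from acetyl-CoA in 2 stretches. The mevalonate steps make isoprenoid units through enzymes that include HMG-CoA synthase (Hmgcs1) and isopentenyl diphosphate isomerase (Idi1). The sterol steps begin with squalene synthase (Fdft1), squalene epoxidase (Sqle), lanosterol synthase (Lss) and lanosterol demethylase (Cyp51). When sterols are scarce in the endoplasmic reticulum, the transcription factor SREBP2 (Srebf2) is released to the nucleus and switches these genes on. INSIG1 (Insig1) holds SREBP2 back when sterols are plentiful and is itself a target of SREBP2. The liver is a main site of this synthesis.

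All 8 genes are protein coding. In the GENCODE M21 gene models on GRCm38, Hmgcs1 lies on chromosome 13 at 119690379 to 119708260 (plus strand) and Idi1 on chromosome 13 at 8885501 to 8892451 (plus strand). Fdft1 lies on chromosome 14 at 63145150 to 63179578 (minus strand), Sqle on chromosome 15 at 59315077 to 59331192 (plus strand) and Lss on chromosome 10 at 76531588 to 76557138 (plus strand). Cyp51 lies on chromosome 5 at 4081145 to 4104746 (minus strand), Insig1 on chromosome 5 at 28071363 to 28078662 (plus strand) and Srebf2 on chromosome 15 at 82147181 to 82205379 (plus strand). Fdft1 overlaps Ctsb and Cyp51 overlaps Akap9, both on the opposite strand, and Hmgcs1, Idi1 and Lss each overlap an antisense or unclassified model on the opposite strand. Whether the authors' counting used strand is not given in the sources used here, so values of these 5 genes can hold UMIs of their partners. Srebf2 overlaps Mir33 and the unclassified model Gm49502 on its own strand, which counting by strand would not separate. In hepatocyte sums of UMIs per 1000000 after scaling (scaled CPM), Akap9 was at 228 to 254 in WT livers and at 195, 227 and 156 in HNKO livers. Ctsb was at 22.8 to 24.2 in WT livers and at 20.01, 24.5 and 55.7 in HNKO livers, so it too was highest in HNKO mouse 3, and its part in the Fdft1 values was not tested.

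Promoters were read from a RefSeq table (GRCm38.p6) that covered 250 bases before to 50 after each start and held 6 of the 8 genes, all but Fdft1 and Sqle. They were searched on both strands for the sterol regulatory element TCACNCCAC bound by SREBP, its inner part CACNCCA, the NF-Y box CCAAT and the Sp1 box GGGCGG. The element was found in 1 of the 6 promoters, that of Hmgcs1, against 1.24% of the 32851 promoters in the table. The inner part, which lies inside the element, was found in 3 of 6 (Hmgcs1, Srebf2 and Insig1) against 18.4%. The NF-Y box was found in 6 of 6 against 37.4%, and the Sp1 box in 6 of 6 against 35.7%. The 4 stretches that hold such letters upstream of both the RefSeq and the GENCODE start are shown to let the spacing be seen, 5′ to 3′ on the strand of the gene, with the element, its inner part and the NF-Y box (ATTGG on the opposite strand) in capitals.
Hmgcs1: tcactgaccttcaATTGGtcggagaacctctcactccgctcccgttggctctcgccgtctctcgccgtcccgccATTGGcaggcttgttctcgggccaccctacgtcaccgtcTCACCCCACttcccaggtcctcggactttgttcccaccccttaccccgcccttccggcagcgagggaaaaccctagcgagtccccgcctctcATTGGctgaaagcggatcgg
Srebf2: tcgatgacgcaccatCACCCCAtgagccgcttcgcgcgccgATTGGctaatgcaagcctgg
Lss: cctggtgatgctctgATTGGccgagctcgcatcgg
Insig1: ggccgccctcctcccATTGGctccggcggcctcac
The stretch of Hmgcs1 is chr13:119690101-119690325, that of Srebf2 chr15:82147093-82147153, that of Lss chr10:76531528-76531562 and that of Insig1 chr5:28071181-28071215, all on the plus strand. In Hmgcs1 the element ends 129 bases before the start, and in Srebf2 the inner part ends 155 and the NF-Y box 131 bases before it. The inner part of Insig1 lies 8 to 2 bases before the RefSeq start and outside the stretch shown. Matching letters are a description and do not show binding.

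The libraries differed in depth and in one mouse. Mice held 629 to 1063 nuclei, 562 to 847 of them hepatocytes, and 3766532 to 7763269 UMIs. No barcode was held by more than 1 nucleus. HNKO mouse 3 stood apart from the other 5 mice. Its own hashtag made up 49.0% of its hashtag counts against 66.1% to 80.3% in the others, and its TMM scaling factor in hepatocytes was 1.28 against 0.917 to 1.01. The 6 hepatocyte markers in the matrix (Alb, Apob, Cps1, Ttr, Serpina3k and Apoa1) summed to 9173 CPM in its hepatocyte nuclei against 20707 to 27090 CPM in the other mice, with none of the 6 at 0. Cholangiocyte markers in hepatocyte nuclei (Krt7, Krt19, Epcam, Spp1, Sox9 and Pkhd1) summed to 496 CPM in HNKO mouse 3 with 5 of 6 above 0, to 614 CPM in HNKO mouse 1 with 4 of 6 above 0, and to 294 to 337 CPM in the other 4 mice with 3 or 4 of 6 above 0. Krt19 was at 0 in the hepatocyte nuclei of all 6 mice. The part of these differences in the results below was not tested, and results are given with and without HNKO mouse 3. Nampt itself measured 92.2, 109 and 104 scaled CPM in WT livers against 92.3, 148 and 71.5 in HNKO livers (log2 fold change 0.03, SE 0.27, edgeR FDR 0.98), so its count did not separate the genotypes. It is a count per gene at the 3′ end and does not show which exons were present.

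To determine whether the cholesterol genes differed between genotypes, UMIs were summed over the hepatocyte nuclei of each mouse and compared with edgeR's quasi-likelihood test over 11810 genes. Values in this comparison are scaled CPM, with totals scaled by the TMM method. Means of 7 of the 8 genes were higher in HNKO hepatocytes, and much of this lay in HNKO mouse 3. Fdft1 measured 27.4 ± 10.3 in WT and 84.1 ± 59.2 in HNKO livers, and Hmgcs1 56.1 ± 10.2 and 123 ± 75.9 (mean ± SD, n = 3 mice each). None of the 8 passed an adjusted p (FDR) of 0.05, and none of the 11810 genes did (0%), although 698 genes had an unadjusted p under 0.05 and DESeq2 called 21. Of the 8 genes, 6 were higher in HNKO with an unadjusted p under 0.05, against 3.86% of all genes in that direction. In 4 of the 8 every HNKO mouse lay above every WT mouse, against 6.42% of all genes, and in 6 of the 8 HNKO mouse 3 was the highest of the 6 mice, against 29.6% of all genes. Since the genes were chosen with these values known, nothing is read from these shares.

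Among the mevalonate steps, Hmgcs1 measured 50.9, 67.9 and 49.5 scaled CPM in WT livers against 98.7, 63.1 and 209 in HNKO livers. HNKO mouse 2 lay among the WT mice and HNKO mouse 3 lay far above every other mouse, so the groups overlapped. The log2 fold change was 1.14 (SE 0.41, edgeR FDR 0.82), and 0.53 without HNKO mouse 3. WT livers held 9.87, 12.6 and 10.8 scaled CPM of Idi1, and HNKO livers 16.7, 17.1 and 36.7. Here the groups did not overlap, and HNKO mice 1 and 2 were nearly equal. For Idi1 the log2 fold change was 1.08 (SE 0.34, edgeR FDR 0.82), and 0.61 both without HNKO mouse 3 and without the nuclei of its main cluster, HNKO 2.

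Among the sterol steps, Fdft1, at the branch where carbon is committed to sterols, measured 20.1, 39.2 and 23.1 scaled CPM in WT livers against 43.8, 56.4 and 152 in HNKO livers. The groups did not overlap, but the gap between WT mouse 2 and HNKO mouse 1 was small beside the distance from either to HNKO mouse 3. Its log2 fold change was the highest of the 8 genes at 1.61 (SE 0.49, edgeR FDR 0.82), and was 0.87 without HNKO mouse 3. Fdft1 was also the gene that came closest to the threshold under any alternative, with an edgeR FDR of 0.070 when no filter on low counts was used. Over all alternatives its adjusted p ran from 0.070 to 0.977.

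Sqle, which encodes the enzyme that adds the first oxygen of the sterol ring system, measured 17.0, 21.8 and 27.4 scaled CPM in WT livers against 27.5, 40.9 and 38.0 in HNKO livers. The groups did not overlap, but WT mouse 3 and HNKO mouse 1 were within 0.1 CPM of each other, and HNKO mouse 2 was the highest. The log2 fold change was 0.68 (SE 0.24, edgeR FDR 0.82), 0.63 without HNKO mouse 3 and 0.32 without the nuclei of cluster HNKO 2. Lss, which closes the rings, was at 8.33, 12.6 and 17.5 scaled CPM in WT livers and at 17.7, 20.1 and 37.7 in HNKO livers. All 3 HNKO mice lay above the WT mice, HNKO mouse 1 by a narrow margin. The log2 fold change of Lss was 0.96 (SE 0.37, edgeR FDR 0.82), and 0.55 without HNKO mouse 3. Cyp51, which removes a methyl group from lanosterol, was at 11.1, 28.9 and 18.5 scaled CPM in WT livers and at 26.6, 29.4 and 34.2 in HNKO livers. WT mouse 2 lay among the HNKO mice. The fitted log2 difference was 0.62 (SE 0.32, edgeR FDR 0.82), 0.52 without HNKO mouse 3 and 0.31 without the HNKO 2 nuclei, and ran from 0.34 without WT mouse 1 to 1.01 without WT mouse 2.

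The 2 regulators among the 8 genes differed from each other. Srebf2, the gene of SREBP2, measured 39.5, 55.2 and 41.1 scaled CPM in WT livers against 59.9, 54.2 and 82.4 in HNKO livers. WT mouse 2 and HNKO mouse 2 were nearly level, and HNKO mouse 3 was the highest. Its log2 fold change was 0.53 (SE 0.23, edgeR FDR 0.82), and 0.34 without HNKO mouse 3. WT livers held 181, 120 and 168 scaled CPM of Insig1, and HNKO livers 126, 176 and 162. The 2 groups lay on top of each other and HNKO mouse 3 was in the middle. Its log2 fold change was -0.02 (SE 0.22, edgeR FDR 0.99), with a sign that turned under several alternatives.

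**Figure D1:**
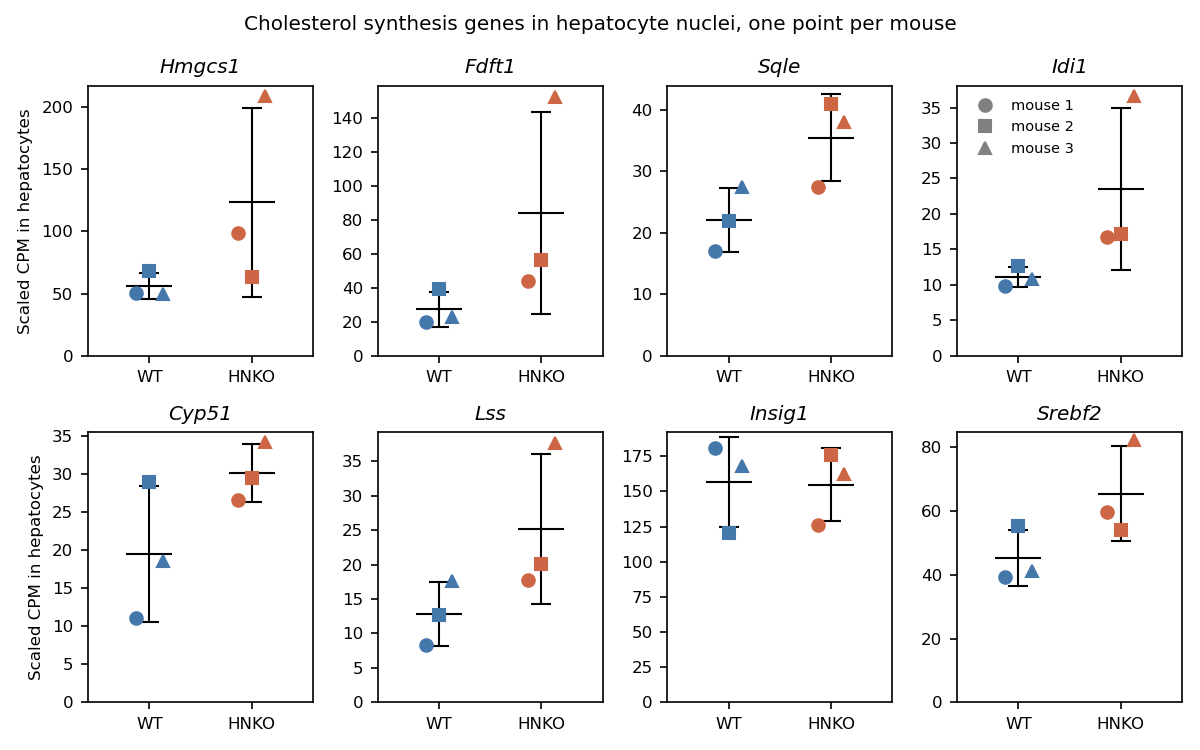
Scaled CPM of the 8 genes in hepatocyte sums, with 1 point per mouse (circle, square and triangle for mice 1, 2 and 3 of a genotype) and the mean ± SD of 3 mice as a black bar. HNKO mouse 3 is the highest mouse in 6 panels, but not for Sqle or Insig1, and the Insig1 points of both genotypes cover the same range.

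The other genes of the pathway were then placed beside these 8. The lists, written with earlier results of these data known, held 48 genes including the 8, and 44 passed the count filter (Mylip, Npc1l1, Abcg1 and Soat1 did not). No pathway gene passed an edgeR FDR of 0.05, while 11 of the 44 had an unadjusted p under 0.05, all higher in HNKO, against 3.86% of all genes. Without the 8 genes it was 5 of 36. The median log2 fold change was 0.96 over the 9 mevalonate genes and 0.42 over the 13 sterol genes, against 0.02 over all genes tested, and without HNKO mouse 3 these were 0.53, 0.23 and 0.01. It was 0.06 over the 9 regulators (-0.04 without HNKO mouse 3), 0.21 over the 8 uptake genes that passed the filter (0.15) and -0.34 over the 5 efflux and storage genes (-0.10). Over the 16 synthesis genes that are not among the 8 the median was 0.34 with 13 above 0, and 0.12 without HNKO mouse 3. Of all 11810 genes tested 6184 were above 0. Over all 22 synthesis genes it was 0.65 and 0.27. Without any scaling factors the median of all genes moved to 0.20, the synthesis genes to 0.84 and the 8 genes to 1.04.

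HNKO mouse 3 was the highest mouse for 7 of the 9 mevalonate genes. Of the 9 log2 fold changes 8 were positive and 1 negative, against 6184 positive of all 11810 genes tested. Mvd, which encodes mevalonate diphosphate decarboxylase, had the highest log2 fold change of this list at 1.26 (SE 0.74), and only 0.06 without HNKO mouse 3. Mvk and Pmvk, the kinases of mevalonate and of its phosphate, had log2 fold changes of 1.2 (SE 0.50) and 0.90 (SE 0.22), and Pmvk kept 0.74 without HNKO mouse 3. WT livers held 13.3, 15.8 and 15.4 scaled CPM of Pmvk and HNKO livers 21, 28.4 and 33.4, with no overlap. Fdps, which makes farnesyl diphosphate, had a log2 fold change of 0.96 (SE 0.39).

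Among the remaining sterol genes, Nsdhl, which acts in the removal of methyl groups after Cyp51, had a log2 fold change of 0.82 (SE 0.28), and 0.63 without HNKO mouse 3. Ebp, a sterol isomerase, was the lowest of the list at -0.04 (SE 0.22). Dhcr7, which reduces a double bond late in the pathway, had a log2 fold change of 0.21, and -0.20 without HNKO mouse 3. Among the regulators, Srebf1, the gene of the factor of fatty acid synthesis, was the lowest at -0.38 (SE 0.31). Insig2 was named after its values were seen. This sister of Insig1 was at 1412, 1138 and 990 scaled CPM in WT livers and at 2752, 920 and 80.2 in HNKO livers. HNKO mouse 1 was the highest and HNKO mouse 3 the lowest of the 6, so a log2 fold change of 0.08 (SE 0.92) covered opposite values.

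Of the 8 uptake genes tested, 4 had positive and 4 negative log2 fold changes. Npc2, which carries cholesterol inside lysosomes, had the highest log2 fold change of this list at 0.91 (SE 0.32), and its partner Npc1 the lowest at -0.46 (SE 0.21). Among efflux and storage genes, Soat2, which esterifies cholesterol, was the highest at 0.16 (SE 0.17) and Abcg8, a subunit of the sterol transporter into bile, the lowest at -0.45 (SE 0.37). Abcg8 measured 70.2 to 84.2 scaled CPM in all mice but HNKO mouse 3, which measured 25.2, and its log2 fold change was -0.09 without that mouse.

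**Figure D2:**
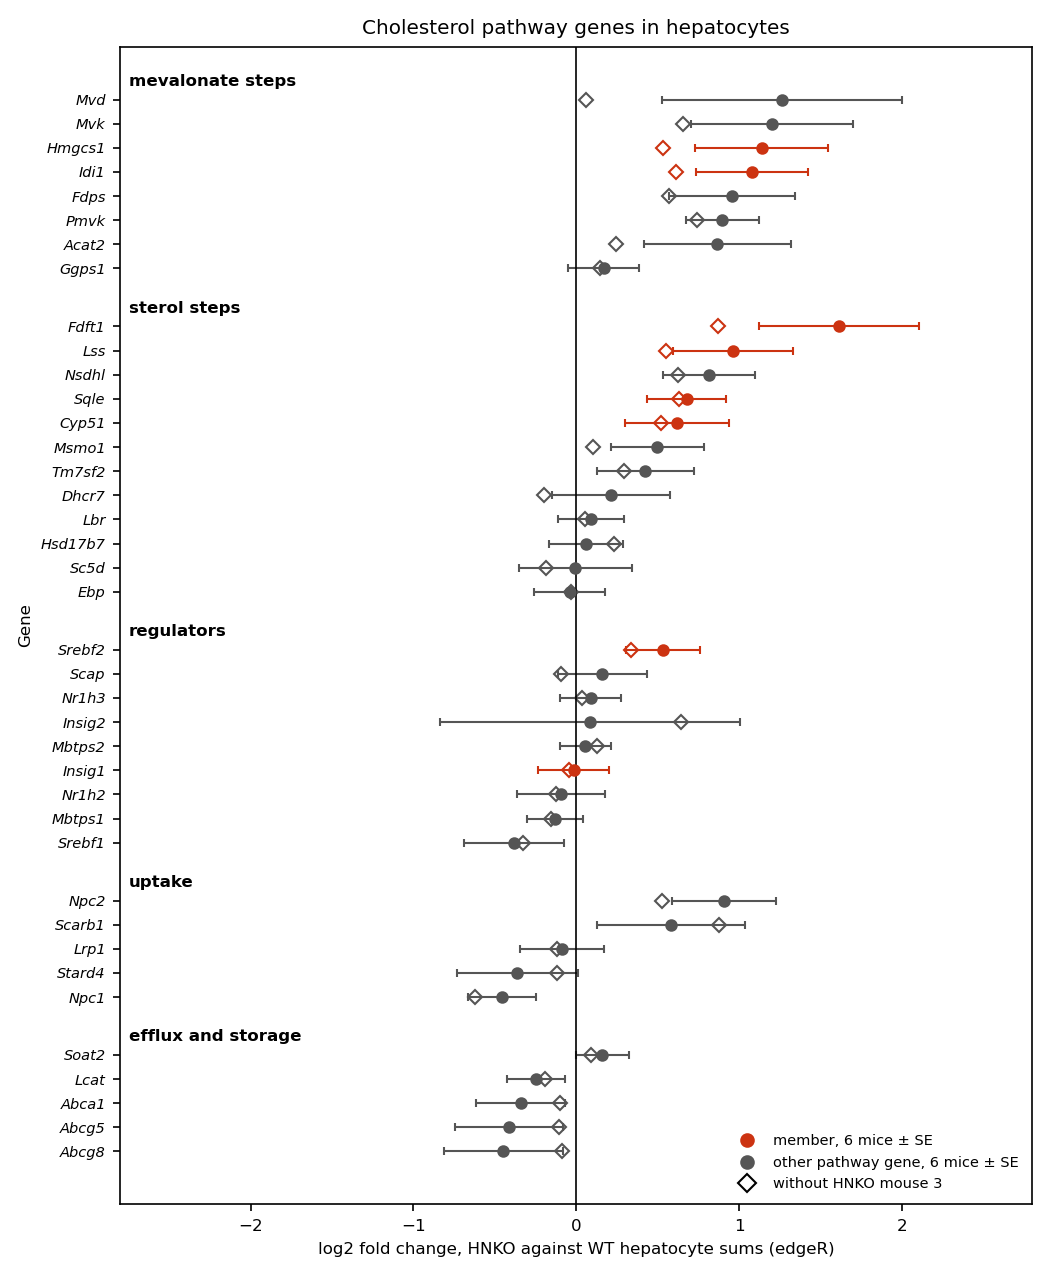
Log2 fold change of HNKO against WT in hepatocyte sums for pathway genes that passed the count filter and are reported here (filled circle, with the SE of the edgeR fit over 6 mice) and the same without HNKO mouse 3 (open diamond), ordered within each list. Red marks the 8 chosen genes, of which 7 lie right of 0, and the open diamonds of Hmgcs1, Idi1, Fdft1, Lss and Srebf2 lie closer to 0 than the circles.

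To see in which hepatocytes the transcripts lay, CPM was computed for each of the authors' clusters without scaling factors. Cluster values and contrasts carry no test, because the clusters were made from these nuclei and genes. On this unscaled measure cluster HNKO 2 had the highest level of all 8 genes among the 13 hepatocyte clusters. It held 494 nuclei, 97.0% of them from HNKO mouse 3, so that the cluster and the mouse cannot be told apart. The TMM factor of that mouse was 1.28 against 0.917 to 1.01 in the others, so scaling would lower HNKO 2 against their clusters. Ranks on scaled values were not computed. Hmgcs1 was at 335 CPM in HNKO 2 (exact Poisson 95% interval 316 to 355) against a median of 51.2 over the 13 clusters and 40.6 in Central 1, the lowest. Fdft1 was at 228 CPM (212 to 244) against a median of 42.1, and 11.95 in Hepatocytes 4. These 2 genes had cluster HNKO 3, also almost wholly from HNKO mouse 3 (99.0%), as the next highest, at 159 and 145 CPM. High Hmgcs1 was not limited to that mouse. Hepatocytes 2 held 146 CPM of Hmgcs1 (123 to 171) over all mice. Its 37 nuclei from HNKO mouse 1 held 334 CPM (249 to 439, 51 UMIs). The other mice with at least 20 nuclei there held 70.5 to 140 CPM. Intervals cover counting error only.

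The other genes placed different clusters behind HNKO 2. Sqle was at 68.2 CPM in HNKO 2 and at 52.4 in Periportal 1, with 4.41 in Central 1. Idi1 was at 62.9 CPM in HNKO 2, 28.9 in Hepatocytes 2 and 4.26 in Central 1. Cyp51 was at 58.2 CPM in HNKO 2, 31.5 in Hepatocytes 1 and 7.94 in Central 1. Lss was at 61.7 CPM in HNKO 2, 25.4 in HNKO 3 and 7.79 in Central HNKO 1. From the highest to the lowest cluster these genes thus spanned 7.33-fold (Cyp51) to 19.03-fold (Fdft1). The regulators spanned less, with 3.50-fold for Srebf2 (115 to 32.8 CPM) and 2.01-fold for Insig1 (228 to 113 CPM). In HNKO 2 the hepatocyte markers summed to 9136 CPM, and in the other 2 clusters of HNKO mouse 3, HNKO 3 and Central HNKO 2, to 10096 and 5840 CPM. In the other 10 hepatocyte clusters they summed to 13324 to 28793 CPM.

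**Figure D3:**
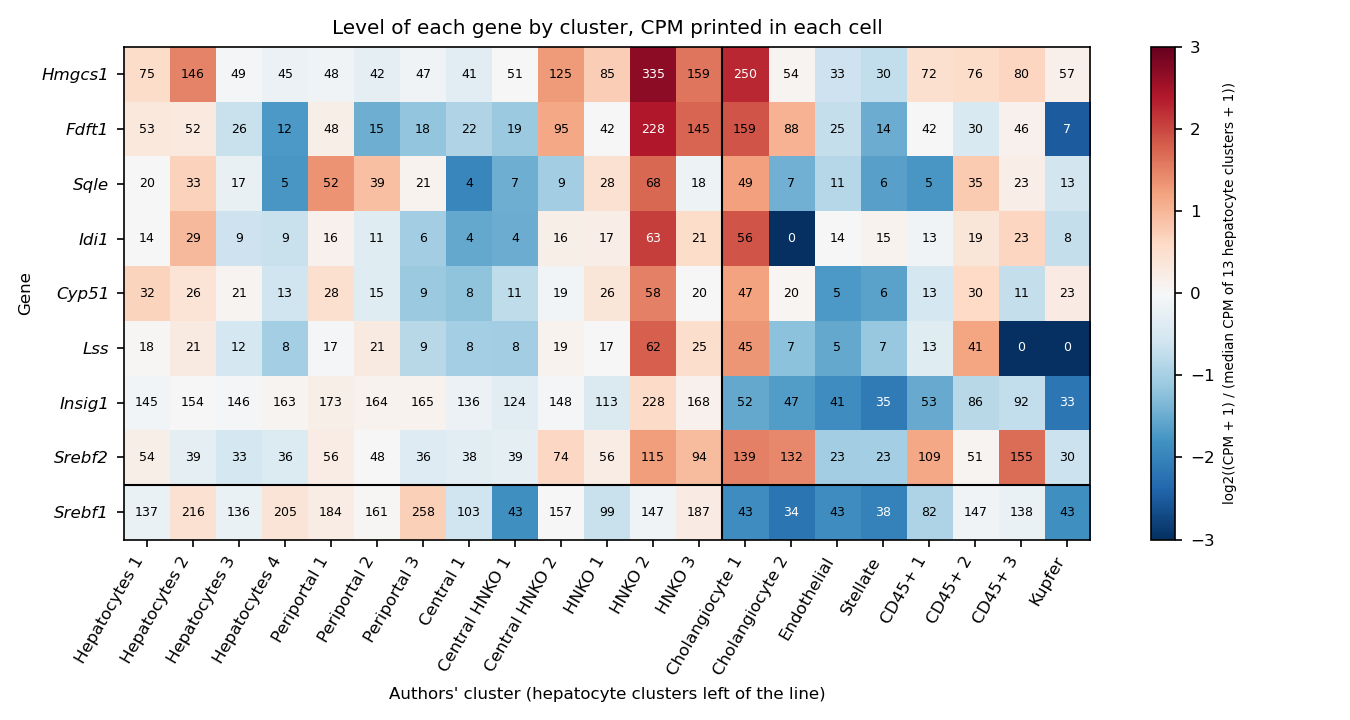
CPM of the 8 genes and of Srebf1 in each of the authors' 21 clusters, printed in each cell, with the colour giving log2((CPM + 1) / (median CPM of the 13 hepatocyte clusters + 1)), limited to a fixed range. HNKO 2 is the reddest hepatocyte column for the 8 genes, with 335 CPM of Hmgcs1 and 228 CPM of Fdft1.

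HNKO mouse 3 was the only HNKO mouse with at least 20 hepatocyte nuclei both in HNKO 2 (479) and outside it (368), so the cluster was also compared inside this one animal. All 8 genes were higher in HNKO 2 than in the rest of its hepatocytes, which lay mainly in HNKO 3 (285 nuclei) and Central HNKO 2 (78). Pericentral markers summed to 237 CPM in HNKO 2 against 1223 and 6950 CPM in those clusters, and cholangiocyte markers to 591 against 337 and 297 CPM, and their part in the contrast was not tested. Sqle was at 68.3 against 17.1 CPM, a log2 ratio of 2.00 (exact 95% counting interval 1.49 to 2.54). Idi1 was at 63.4 against 20.8 CPM (log2 ratio 1.61, 1.14 to 2.11) and Cyp51 at 58.4 against 20.4 CPM (1.52, 1.04 to 2.03). Lss was at 62.6 against 25.0 CPM (1.32, 0.89 to 1.78) and Hmgcs1 at 334 against 158 CPM (1.08, 0.91 to 1.26). The smallest ratios were those of Fdft1 at 230 against 135 CPM (0.77, 0.57 to 0.97), Insig1 at 232 against 166 CPM (0.48, 0.30 to 0.67) and Srebf2 at 114 against 90.3 CPM (0.33, 0.08 to 0.59). The order therefore differed from that between genotypes, where Fdft1 and Hmgcs1 led and Sqle was low. Outside HNKO 2, the hepatocytes of this mouse still held 158 CPM of Hmgcs1 and 135 CPM of Fdft1, above the 46.3 to 90.0 CPM and 18.4 to 56.6 CPM of all hepatocytes of the other mice on the same unscaled measure.

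The rest of the synthesis pathway lay in HNKO 2 as well. All 9 mevalonate and all 13 sterol genes were higher there than in the other hepatocytes of HNKO mouse 3, with median log2 ratios of 0.88 and 0.86 against 0.05 over the 11013 genes with at least 20 UMIs. Mvd at 32.1 against 9.73 CPM had the highest ratio of the mevalonate genes (1.72, 1.04 to 2.47), whereas Ggps1, which makes geranylgeranyl diphosphate outside the route to sterols, was at 24.6 against 23.6 CPM (0.06, -0.46 to 0.59). The 5 efflux and storage genes were all lower in HNKO 2, with a median of -0.43, among them Lcat (-0.95, -1.45 to -0.46), which esterifies cholesterol in plasma lipoproteins, and Abcg5 (-0.80, -1.05 to -0.54), the partner of Abcg8. Of the 8 uptake genes with at least 20 UMIs, 6 were higher in HNKO 2, with a median log2 ratio of 0.26. Over all 11013 genes 6117 were higher. The lower uptake genes were Lrp1 and Npc1, at -0.58 (-0.72 to -0.43) and -0.42 (-0.56 to -0.29).

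**Figure D4:**
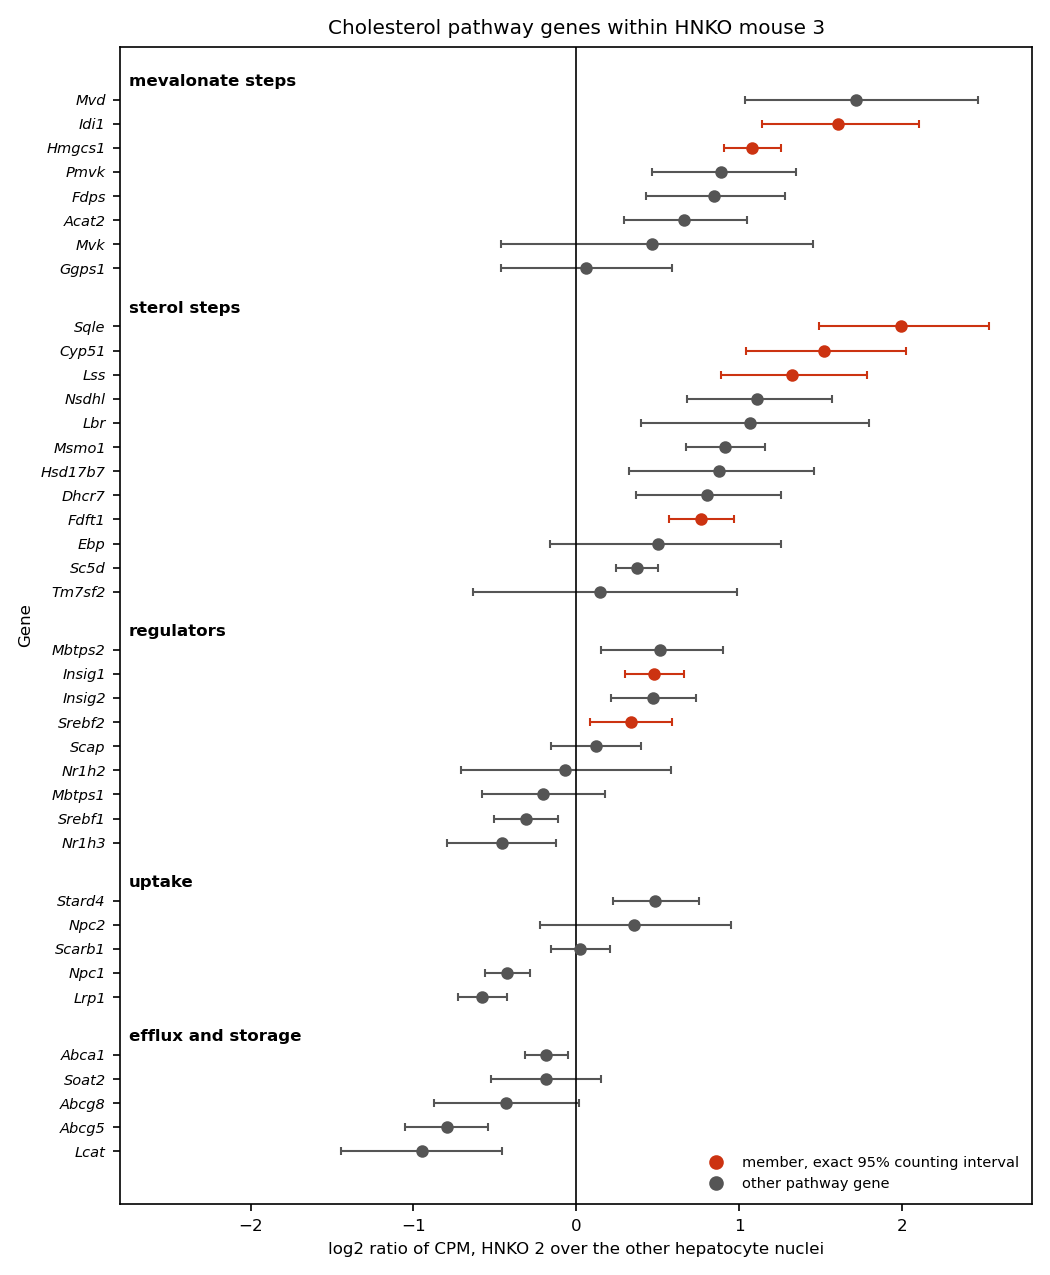
Log2 ratio of CPM in cluster HNKO 2 over the other hepatocyte nuclei of HNKO mouse 3 for the pathway genes with enough UMIs that are reported here, with exact 95% intervals that cover counting error only. The mevalonate and sterol genes lie right of 0, from 0.06 (Ggps1) to 2.00 (Sqle), and the efflux and storage genes lie left of it.

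The spread of the transcripts over single nuclei was also described. To compare nuclei at one depth, each was thinned to 1000 UMIs, which left out none. A nucleus of HNKO 2 from HNKO mouse 3 then held 1.25 UMIs of the 8 genes on average, against 0.701 in the other hepatocyte nuclei of that mouse and 0.326 to 0.479 in the hepatocyte nuclei of the other 5 mice. At least 3 such UMIs were found in 15.9% of the HNKO 2 nuclei, 4.08% of the other hepatocyte nuclei of the mouse and 0.890% to 2.20% of those of the other mice, with 0.408% in endothelial nuclei. Before thinning the shares were 70.8%, 49.2%, 24.7% to 42.5% and 6.12%, at median depths of 5341, 4138, 3572 to 5786 and 3017 UMIs. The 24 HNKO 2 nuclei with the highest share of these transcripts, 5% of the 479, held 22.5% of the UMIs of the 8 genes and 4.78% of all UMIs. They were ranked by that same share, so an excess is built in and nothing is read from it. Without these 24 nuclei the summed level of the 8 genes was still higher in HNKO 2 than in the other hepatocytes of the mouse. The log2 ratio was 0.58 in place of 0.88 (0.79 to 0.97), with no nuclei taken from the other side.

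Zonation was compared within single mice. Hepatocytes near the portal vein and near the central vein do different metabolic work. In the Periportal clusters 6 periportal markers summed to 7219 to 8875 CPM, and in the Central clusters to 741 to 4786 CPM, while 6 pericentral markers summed to 157 to 352 and 6950 to 8607 CPM. The 3 WT mice and HNKO mouse 2 each had at least 20 nuclei on both sides. Sqle was at 25.5, 34.1 and 38.5 CPM in periportal nuclei of WT mice 1, 2 and 3 and at 60.6 CPM in those of HNKO mouse 2. Its central nuclei held 1, 0 and 0 UMIs in the WT mice and 4 UMIs (9.80 CPM) in HNKO mouse 2, where 0 UMIs allow up to 18.8 CPM in WT mouse 2 and 10.4 CPM in WT mouse 3 by a floor of 3 counts. Sqle was thus lower in central nuclei in 4 of 4 mice, on few central UMIs.

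Hmgcs1 did not share this direction in every mouse. It had log2 ratios of periportal over central of 0.74, 0.11 and -0.31 in WT mice 1, 2 and 3 and 0.31 in HNKO mouse 2, and each of the intervals included 0. Insig1 was level in the WT mice (0.08, 0.07 and 0.00) and higher in periportal nuclei of HNKO mouse 2 (0.89, 0.43 to 1.38). Fdft1 was also higher in periportal nuclei of HNKO mouse 2 (1.65, 0.57 to 2.99). Its ratios in WT mice 2 and 3 were -0.76 (-1.81 to 0.46) and -0.49 (-1.78 to 1.07), with intervals that included 0. WT mouse 1 held 20.7 CPM of Fdft1 in periportal and 11.5 CPM in central nuclei, the latter on 3 UMIs. Whether the mice differ in this was not tested. Idi1, Lss and Cyp51 had 0 to 7 UMIs in the central nuclei of each mouse, and their zones were not ranked.

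**Figure D5:**
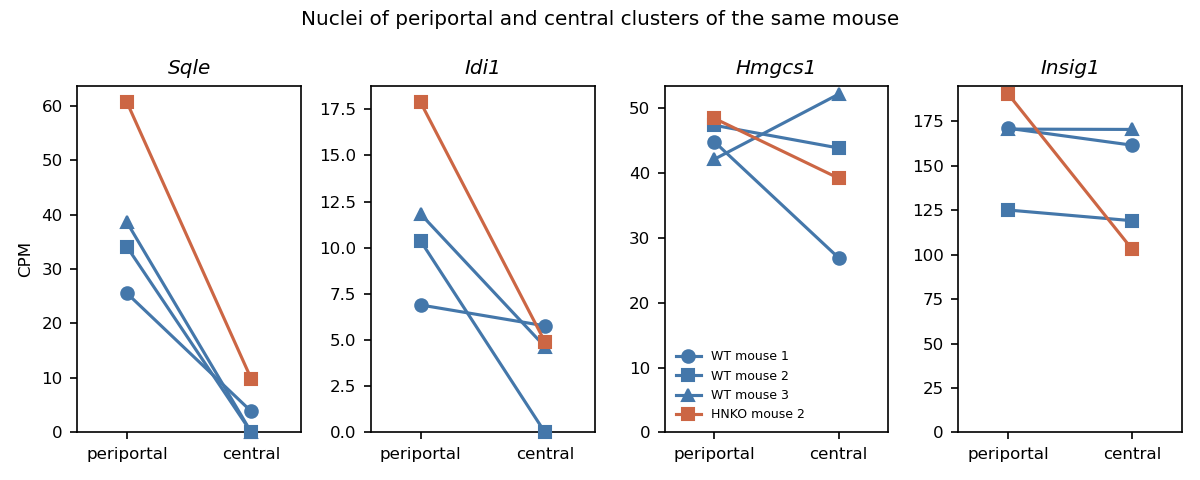
CPM of Sqle, Idi1, Hmgcs1 and Insig1 in nuclei of the Periportal and of the Central clusters of the same mouse, with 1 line per mouse for the 4 mice with at least 20 nuclei of both. Sqle lies lower in central nuclei in every line, while Hmgcs1 lines cross and Insig1 lines of WT mice are nearly flat, and the central points of Sqle and Idi1 rest on at most 4 UMIs each.

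WT mouse 2 and HNKO mouse 2 shared 2 large clusters, which allowed levels to be set side by side within a cluster, with 1 mouse of each genotype and no test. In Periportal 1, Sqle was at 33.3 CPM in WT mouse 2 (exact Poisson 95% interval 24.2 to 44.7) and 60.3 in HNKO mouse 2 (51.4 to 70.3). Fdft1 was at 34.0 (24.8 to 45.5) and 54.0 CPM (45.6 to 63.5), and Insig1 at 127 (109 to 148) and 191 CPM (175 to 208). Hmgcs1 was at 43.1 (32.6 to 55.8) and 48.1 CPM (40.2 to 57.1), and Srebf2 at 58.2 (45.9 to 72.8) and 57.3 CPM (48.7 to 67.1). Sqle, Fdft1 and Insig1 were thus higher in HNKO mouse 2, while Hmgcs1 and Srebf2 were about level. In hepatocyte sums WT mouse 2 was the lowest mouse for Insig1 (120 scaled CPM). HNKO mouse 2 was the highest HNKO mouse for it (176), while its log2 fold change between genotypes was -0.02. In Hepatocytes 1, Fdft1 was at 39.0 (31.2 to 48.2) and 64.7 CPM (55.2 to 75.4) and Insig1 at 109 (95.5 to 124) and 176 CPM (160 to 193). The intervals of Sqle, Idi1, Lss, Cyp51, Hmgcs1 and Srebf2 overlapped there.

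To find which other transcripts followed these genes over the 13 hepatocyte clusters, log2(CPM + 1) of each of 8509 other genes with at least 200 UMIs was correlated with the mean z-score of the 8 genes. This is a description over 13 clusters that share mice, and HNKO 2 carries much of it, with a mean z-score of 2.10 against -1.09 to 0.77 in the others. The 10 most alike were Gmcl1 (Pearson r 0.96), Arhgef18 (0.94), 2510009E07Rik (0.93), Hunk (0.93), Vps35 (0.93), Gnas (0.92), Dlgap4 (0.92), Nsdhl (0.92), Cnot6 (0.92) and Pgd (0.91). Nsdhl is the only sterol gene among them, and Pgd encodes an enzyme of the pentose phosphate pathway that makes NADPH. Of the 35 pathway genes compared, 8 were among the first 100, including Pmvk (r 0.89), Npc2 (0.88), Fdps (0.87), Acat2 (0.86) and Mvd (0.86). Insig2 ranked 8373 (r -0.70). Each of the 8 genes correlated with the mean of the other 7, from 0.58 (Insig1) and 0.66 (Sqle) to 0.95 (Idi1) and 0.97 (Lss).

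Other liver cells held the transcripts as well. Over all mice the 8 genes summed to 481 CPM in hepatocytes, 698 in cholangiocytes, 349 in CD45+ cells, 172 in Kupffer cells, 158 in endothelial cells and 137 in stellate cells. These sums mix mice in unequal parts, with 58 of the 110 cholangiocytes from HNKO mouse 3, so levels are also given as a share of the hepatocyte level of the same mouse. RNA of other cells can reach a nucleus, and the share of the hepatocyte markers is given beside that of the 8 genes. In cholangiocytes the 8 genes were at 89.4%, 53.7% and 107% in HNKO mice 1, 2 and 3, and the markers at 7.80%, 7.44% and 17.8%. Srebf2 was at 228%, 181% and 147% of its hepatocyte level there and Insig1 at 23.4%, 14.0% and 34.1%. In HNKO mouse 2 these values rest on 4 UMIs of Srebf2 and 1 of Insig1. Its exact Poisson 95% interval for Srebf2 (26.9 to 252 CPM) included its hepatocyte level of 54.5 CPM. Hmgcs1 was at 98.2% and 121% in HNKO mice 1 and 3, with 0 UMIs in the 10 nuclei of HNKO mouse 2. In CD45+ cells the 8 genes were at 59.1% to 108% over 5 mice and the markers at 30.3% to 49.3%, and in stellate cells at 21.9% to 40.9% over 6 mice against 4.59% to 33.5%. In Kupffer cells the 8 genes were at 23.5% to 37.0% over 3 mice and the markers at 8.08% to 28.8%, and in endothelial cells at 15.4% to 59.5% over 6 mice against 15.2% to 39.4%. The ranges of the 8 genes and of the markers thus overlapped in endothelial, stellate and Kupffer cells. Within single mice the 8 genes had the higher share in these types in every mouse but HNKO mouse 3. In that mouse they were lower in endothelial (15.4% against 39.4%) and stellate cells (31.7% against 33.5%). They were higher in its Kupffer cells (31.2% against 28.8%). The narrowest gap elsewhere was in endothelial cells of HNKO mouse 2 (30.7% against 29.7%).

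In CPM, HNKO mouse 3 was also the highest mouse for these genes in 4 of the 5 other cell types. In its cholangiocytes the 8 genes summed to 1023 CPM (exact Poisson 95% interval 920 to 1133), against 340 (273 to 419) and 246 (118 to 453) in HNKO mice 1 and 2. In stellate cells it measured 303 CPM (217 to 411), against 68.0 to 141 in the other 5 mice. In CD45+ cells it measured 564 CPM (455 to 691), against 267 to 374 in the 4 other mice with at least 10 such nuclei. In Kupffer cells it measured 298 CPM (198 to 431), against 141 (77.8 to 234) and 108 (29.4 to 276) in HNKO mice 1 and 2, with overlapping intervals. Endothelial cells were the exception, with 147 CPM in HNKO mouse 3 inside the range of 120 to 185 of the others. As a share of the mouse's own hepatocyte level, the hepatocyte markers were also highest in HNKO mouse 3 in cholangiocytes (17.8%), stellate cells (33.5% against 4.59% to 16.6%) and Kupffer cells (28.8% against 9.64% and 8.08%), and near the highest in CD45+ cells (48.6% against 30.3% to 49.3%). On the same measure its 8 genes were at 31.7% in stellate and 31.2% in Kupffer cells, about level with the markers, and at 107% in cholangiocytes and 59.1% in CD45+ cells. The markers measured 9173 CPM in the hepatocytes of HNKO mouse 3 against 20707 to 27090 in the other mice, which raises its marker shares. The 8 genes summed to 955 CPM in the hepatocytes of HNKO mouse 3 against 310 to 459 in the others, which lowers its shares of these genes. In CPM its markers were the lowest in cholangiocytes (1633 against 1725 and 1878) and in CD45+ cells (4454 against 6717 to 11425). They were mid-range in stellate cells (3077 against 1243 to 3991) and the highest in Kupffer cells (2644 against 1873 and 2321). The part of RNA from hepatocytes in the levels of the 8 genes was not tested. The sums rest on 23 to 363 UMIs in HNKO mouse 3 and on as few as 4 in others.

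The genotype test outside hepatocytes reached few of these genes. In endothelial (2743 genes tested), stellate (2266) and CD45+ (2703) sums, edgeR called 0% of genes at an FDR of 0.05, while 104, 160 and 222 genes had an unadjusted p under 0.05 and DESeq2 called 1, 1 and 4. None of the 8 genes passed the count filter in endothelial or stellate cells. In CD45+ cells, from 2 WT and 3 HNKO mice, Srebf2 and Insig1 did, with log2 fold changes of 0.47 (SE 0.62, edgeR FDR 0.94) and -0.21 (SE 0.86, edgeR FDR 0.99). Cholangiocytes and Kupffer cells were not tested, since only HNKO mice had at least 10 of these nuclei.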

How the data were processed

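Hashtagged nuclei of 6 livers were mixed and run on a droplet platform that reads the 3′ end of transcripts, giving 2 RNA and 2 hashtag pools. Per the submitters' processing notes and the study's methods, the authors used Cell Ranger version 5.0.1 and alevin on GRCm38 with GENCODE M25, and deposited estimated counts of UMIs (introns included), hashtag counts, and SCTransform-corrected values, a whole-number score. The authors removed nuclei with no hashtag or several. Droplets with 2 nuclei of one mouse remain, and no doublet caller was run. The deposited table does not name a nucleus's pool.

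UMIs were summed per mouse and cell type (at least 10 nuclei), rounded, and compared by the two-sided edgeR quasi-likelihood test (edgeR 4.0.16, R 4.3.3) after filterByExpr and TMM scaling. Genotype was the single term, and p-values were adjusted over all genes tested by Benjamini-Hochberg (FDR). DESeq2 1.42.0 was an alternative. The edgeR step was checked on simulated data. The 8 genes, the pathway and marker lists and the tests were chosen with earlier results of these data known. Named were the 8 genes, Nampt, the highest and lowest gene of each pathway list, those with an unadjusted p under 0.05, and the 10 genes most alike over clusters. Other genes were named after their values were seen. Some pathway genes are counted in the lists but not reported singly here, also where the naming rule above would cover them. The marker Tf was not found under that name in the matrix. Counts, ratios and intervals were computed in Python 3.11.15 with scipy 1.17.1, numpy 2.4.6 and pandas 2.3.3, and figures drawn in matplotlib 3.10.9.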

Additional observations from a re-analysis of the deposited data

How the results depend on the processing

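Depth limits the values outside hepatocytes and in central nuclei, which rest on few UMIs. None of the 8 genes and no pathway gene was called in hepatocytes under RLE size factors, no scaling factors (an alternative chosen after seeing the data), no filter on low counts, DESeq2, without the HNKO 2 nuclei, or without any 1 mouse. Genes called among all genes were 35 with no filter, 21 with DESeq2 and 0 to 32 when 1 mouse was left out (32 without HNKO mouse 2). The count of the 8 genes with an unadjusted p under 0.05 went from 6 to 3 without the HNKO 2 nuclei and to 2 to 6 when 1 mouse was left out, with 2 without WT mouse 1 and 2 without HNKO mouse 3. For Insig1 the log2 fold change turned to 0.0084 with no filter, 0.18 with no scaling factors, 0.28 in SCTransform-corrected means, 0.25 as the mean UMI share per nucleus, 0.10 without WT mouse 1, 0.03 without WT mouse 3 and 0.11 without HNKO mouse 1, within -0.18 to 0.11 over mice left out. In SCTransform-corrected means Sqle was at 0.93, Lss at 1.4 and Srebf2 at 0.90, and Srebf2 at 0.77 as the mean share per nucleus. The cause of these shifts was not tested. In endothelial, stellate and CD45+ cells, the types tested, none of the 8 genes was called, while all genes called reached 16 (endothelial), 29 (stellate) and 23 (CD45+) with no filter, 47 in stellate and 10 in CD45+ cells without HNKO mouse 2, and 1 in CD45+ cells without HNKO mouse 3.

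For HNKO 2 against the other hepatocytes of HNKO mouse 3, each of the 8 genes and their sum kept its direction under every alternative. Without the top 5% of HNKO 2 nuclei the log2 ratio was 0.66 for Hmgcs1, 0.50 for Fdft1 and 1.00 for Idi1. It was 0.85 for Lss, 0.19 for Srebf2 and 0.58 for the sum, with no nuclei taken from the other side. Thinned to 1000 UMIs it was 1.04 for Fdft1 and 1.26 for Sqle, but only 0.09 for Srebf2. It was 0.98 for Fdft1 as the mean share per nucleus and 0.97 for the sum in SCTransform-corrected means. By Spearman's rho, 3 of the 10 genes most alike stayed among the first 10. All 13 clusters held at least 50 nuclei, so that limit changed nothing. No paired analysis was possible because replicate numbers name sequencing pools that each held all 6 mice. The 2 pools could not be run apart, since the deposited table does not name the pool of a nucleus.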
